A study of Rattus norvegicus with 6 samples.

Results

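The genes described here are 8 aquaporins and 2 vasopressin receptors, measured in rat renal cortex, the part of the kidney under its capsule that holds the glomeruli. They are 10 of the 15284 genes named on the array. The members were chosen by name, as genes of renal water handling in a study of a former laxative: Aqp1, Aqp2, Aqp3, Aqp4, Aqp5, Aqp6, Aqp7, Aqp11, Avpr2 and Avpr1a. They were found on the array through the RefSeq accession of each probe, and all 10 had at least 1 probe. Together they had 18 probes out of 61657 on the array, and every probe was kept apart. Phenolphthalein, a dye once sold as a laxative, was given to 3 male Sprague-Dawley rats over 4 weeks, with a daily dose of 1000 mg/kg. Another 3 males of the same strain received the vehicle, corn oil, over the same 4 weeks. Purchase was at 5 weeks of age for all of them, they ate a basal diet and drank tap water freely, and every rat had an array of its own. The labels do not give water intake, urine volume or plasma vasopressin, so the hydration of these rats is unknown here.

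Aquaporins are membrane channels for water, and some of them also pass glycerol. In the kidney, AQP1 takes up filtered water in the proximal tubule and thin descending limb at a steady rate. Water uptake in the collecting duct is regulated: vasopressin binds the V2 receptor on principal cells, cyclic AMP rises, AQP2 moves into the apical membrane, and over longer times the Aqp2 gene is transcribed more. Water then leaves the cell through AQP3 and AQP4 in the basolateral membrane. RNA levels bear on the amount of transcript only and not on the place of the protein in the cell.

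Values are log2 spot signals relative to the 75th percentile of the same array, so 0 is that percentile and a difference of 1 is a doubling. The groups were compared with limma over 43473 probes, those whose signal stood well above background on 3 or more of the 6 arrays, and a call needed a Benjamini-Hochberg adjusted p under 0.05 over all of them. Of the 18 member probes, 17 passed that filter, and each of the 10 genes kept at least 1 tested probe. Between 64.8% and 72.1% of the probes per array were well above background and no spot was saturated. The 6 arrays lay on 3 slides: 1 with every vehicle array, 1 with phenolphthalein replicate 1 alone and 1 with phenolphthalein replicates 2 and 3. Each slide was scanned on a day of its own. No slide held both groups, so slide, scan day and treatment cannot be told apart.

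No member was called higher or lower with phenolphthalein. Of all probes tested, 0% were called in either direction, and the smallest adjusted p over all probes was 0.221. Aqp2, the vasopressin-regulated channel, had the smallest p of the members, and both of its probes had lower values with phenolphthalein. At an unadjusted p under 0.05, 2 of the 17 member probes were lower and 0 higher, against a background over all probes of 4.91% lower, 3.91% higher and 8.82% in either direction. Both of those probes were Aqp2, so the count rests on 1 gene. The adjusted p of the members lay between 0.510 and 0.984 (limma).

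Of the 17 tested member probes, 13 had lower and 4 had higher values with phenolphthalein, where 53.5% of all probes were lower and 46.5% higher. The median difference over the member probes was -0.15, and it was -0.01 over all probes tested. The groups did not overlap for 2 member probes, both lower, against a background of 8.98% of all probes lower without overlap, 6.63% higher and 15.6% in either direction. Those were 1 probe of Aqp2 and 1 of Aqp4.

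**Figure D1:**
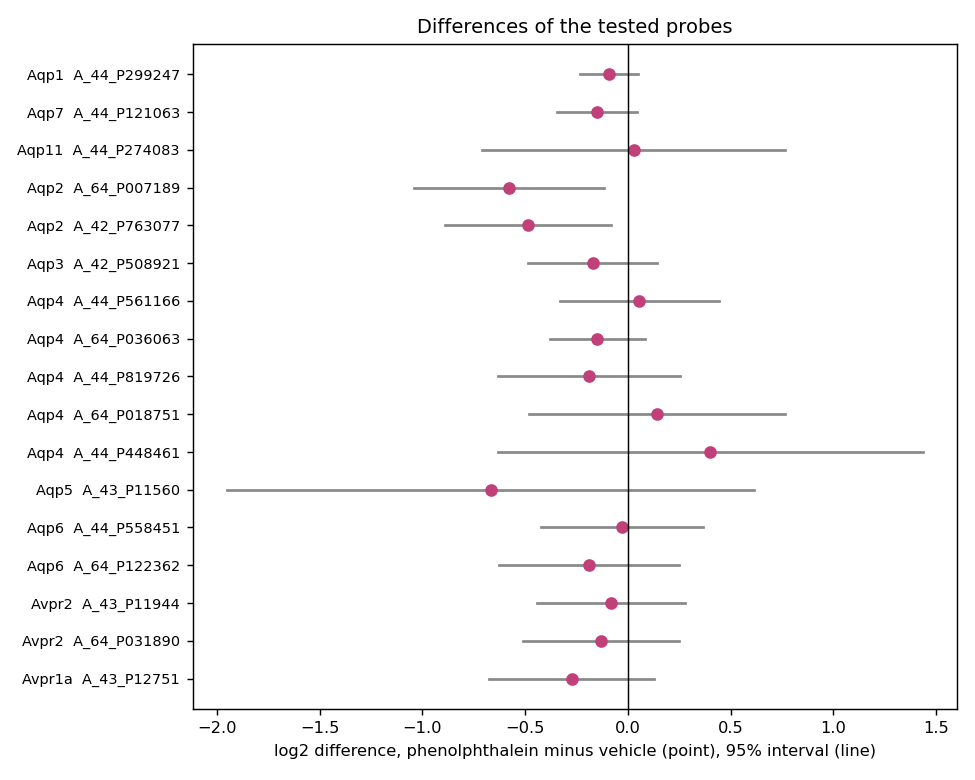
Log2 difference between phenolphthalein and vehicle for each tested member probe (point) with the 95% interval of limma (line, 3 arrays per group, not adjusted for the number of probes). The intervals of both Aqp2 probes lie below 0, from -1.04 to -0.12 and from -0.89 to -0.08, and the intervals of the other probes include 0.

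Aqp2 lies on rat chromosome 7, and in the GRCr8 gene table its next coding neighbours are Aqp5 and then Aqp6. The 250 bases before its annotated start, at chr7:132590036-132590285 on the plus strand (RefSeq, GRCr8), are shown because Aqp2 is the member with the smallest p and because its regulation by vasopressin acts on transcription. Capitals mark 3 short motifs. The first in the sequence is CGTCA, the short form of a cyclic AMP response element. The second is a GATA core, found as GATAA on the minus strand. The third is an E-box, CACGTG, which reads the same on both strands.
Aqp2: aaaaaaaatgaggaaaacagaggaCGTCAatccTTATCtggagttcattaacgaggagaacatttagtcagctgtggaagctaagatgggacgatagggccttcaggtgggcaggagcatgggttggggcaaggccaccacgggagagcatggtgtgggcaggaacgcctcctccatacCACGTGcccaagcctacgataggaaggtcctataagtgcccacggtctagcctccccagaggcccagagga
The short element lies 226 to 222 bases, the GATA core 217 to 213 bases and the E-box 71 to 66 bases before the start. On both strands of the 33469 promoter windows of the same length in that table, CGTCA was present in 18.2%, GATAA in 23.5% and CACGTG in 5.59%. The full element TGACGTCA, which contains the short form, was present in 1.59% and in 0 of the 9 members with a sequence. The E-box letters are also in the windows of Aqp5 and Aqp6, the coding genes that follow Aqp2. These letters are shown with 10 bases on each side, all from the plus strand of GRCr8: Aqp2 from chr7:132590205-132590230, Aqp5 from chr7:132601295-132601320 and Aqp6 from chr7:132610964-132610989.
Aqp2: tcctccatacCACGTGcccaagccta
Aqp5: ccgcgtgggtCACGTGgcccgggcgg
Aqp6: ccggagtagaCACGTGagcaccctgt
These were 3 of the 9 members with a promoter sequence. The E-box was added to the search after the Aqp2 sequence had been read, and a match is a string of letters and not a known site.

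Aqp2 had 2 probes, both assigned to the same RefSeq transcript and both well above background on all arrays. By probe A_64_P007189, Aqp2 was at 5.75, 6.16 and 6.39 in phenolphthalein replicates 1 to 3, against 6.60, 6.43 and 7.004 in vehicle replicates 1 to 3. The groups did not overlap, although the highest phenolphthalein array lay only just under the lowest vehicle array. The means were 6.10 ± 0.32 in phenolphthalein and 6.68 ± 0.30 in vehicle (SD, n = 3 each), and their difference was -0.58 (SE 0.20, limma adjusted p = 0.510). On a linear scale this is a ratio of 0.670, with a 95% interval of 0.486 to 0.923 before any adjustment for the number of probes, whose unadjusted p was 0.0212.

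By its second probe, A_42_P763077, Aqp2 was at 2.98, 3.01 and 3.35 in phenolphthalein, against 3.34, 3.50 and 3.95 in vehicle. Here phenolphthalein replicate 3 and vehicle replicate 1 were nearly level, and the groups touched. The difference was -0.49 (SE 0.17, limma adjusted p = 0.522), a ratio of 0.714 with an interval of 0.540 to 0.946, at an unadjusted p of 0.0253. Both probes put phenolphthalein replicate 1 lowest and vehicle replicate 3 highest. After each probe's mean over the 6 arrays was subtracted, they differed by 0.12 on average and by at most 0.26 on any array. They measure the same RNA extracts, so the second probe checks the probe and not the animals.

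The size of the Aqp2 difference depended on single animals. Without vehicle replicate 3, the highest array, the differences were -0.42 and -0.31, and neither probe kept an unadjusted p under 0.05 (0.0632 and 0.0551). Without phenolphthalein replicate 1, the lowest array and the one on a slide of its own, they were -0.40 and -0.42 (unadjusted p of 0.0597 and 0.0782). Leaving out any 1 of the 6 arrays gave -0.72 to -0.40 for A_64_P007189 and -0.61 to -0.31 for A_42_P763077, and the value stayed negative each time.

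**Figure D2:**
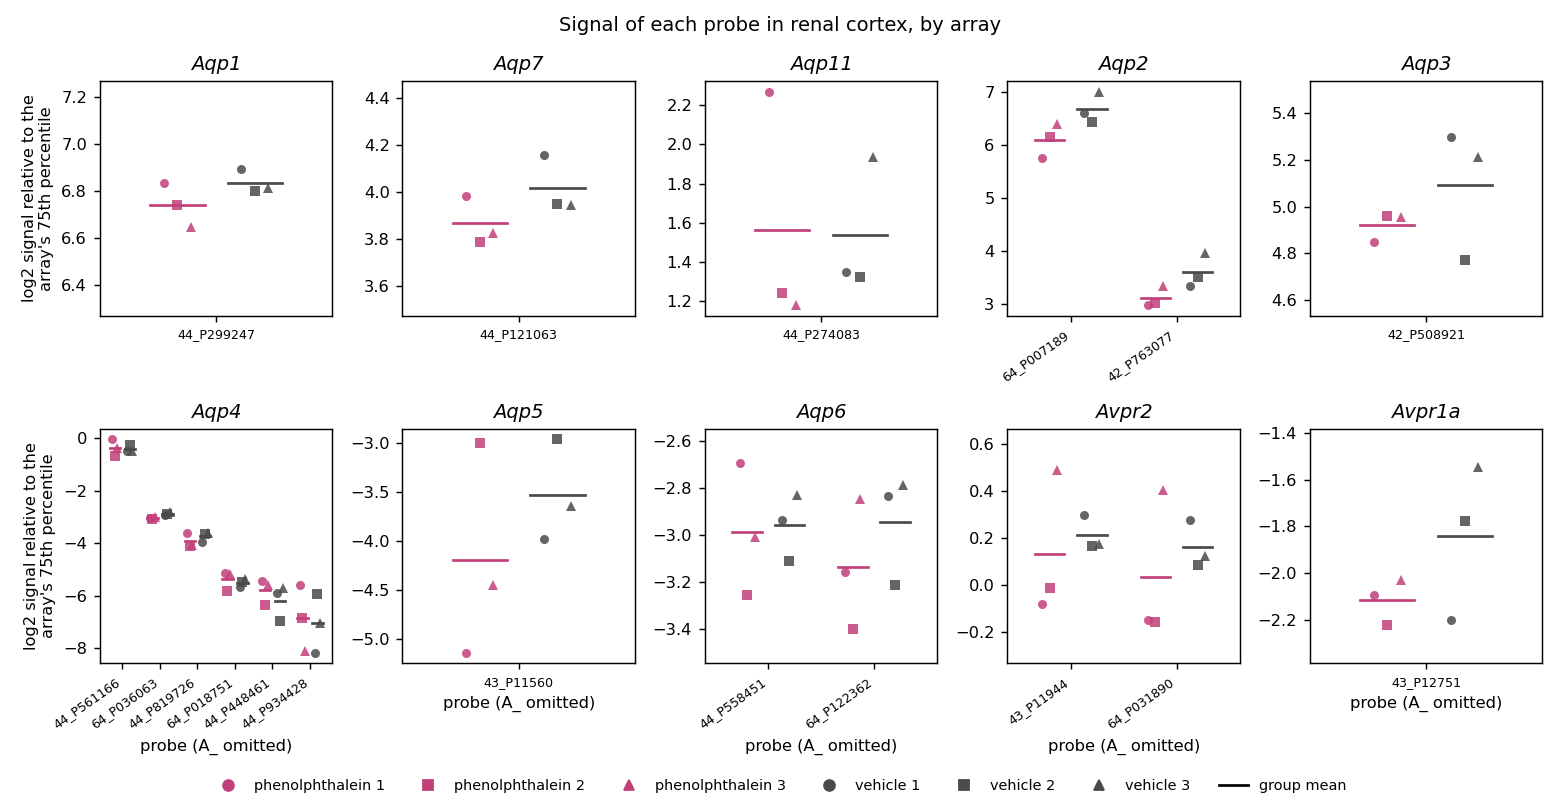
Log2 signal relative to the array's 75th percentile for each probe of the 10 genes, with a panel per gene and a scale of its own in each panel. Points are single arrays (pink, phenolphthalein; grey, vehicle; shapes give the replicate number) and bars are group means. The phenolphthalein arrays of Aqp2 lie at 5.75 to 6.39 by the first probe, below the vehicle arrays at 6.43 to 7.004, and most other panels show mixed arrays.

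Aqp3 encodes the basolateral water and glycerol channel of principal cells. It was at 4.85, 4.96 and 4.96 in phenolphthalein, against 5.30, 4.77 and 5.21 in vehicle. The phenolphthalein arrays were close together, and vehicle replicate 2 lay below all of them. The means were 4.92 ± 0.06 in phenolphthalein and 5.09 ± 0.28 in vehicle (SD, n = 3 each), and the difference came to -0.17 (SE 0.13, limma adjusted p = 0.734). Without vehicle replicate 2 the difference was -0.33, at an unadjusted p of 0.00245 and an adjusted p of 0.734 (limma). Without vehicle replicate 1 it was -0.07 and without vehicle replicate 3 it was -0.11 (unadjusted p of 0.614 and 0.482).

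Aqp4, a basolateral water channel of the collecting duct that is also the main aquaporin of brain astrocytes, had 6 probes, and 5 were tested. Its probe with the highest signal, A_44_P561166, was at -0.03, -0.67 and -0.37 in phenolphthalein, against -0.48, -0.26 and -0.50 in vehicle. The groups overlapped fully, with phenolphthalein arrays at both ends, and the difference was 0.06 (SE 0.16, limma adjusted p = 0.940). Probe A_64_P036063 was at -3.04, -3.07 and -2.995 in phenolphthalein, against -2.93, -2.90 and -2.82 in vehicle. These groups did not overlap, but the difference was only -0.15 (SE 0.10, limma adjusted p = 0.697). Probe A_44_P819726 differed by -0.19, A_64_P018751 by 0.14 and A_44_P448461 by 0.40, so 3 tested Aqp4 probes were higher and 2 lower. The 0.40 was 0.01 without vehicle replicate 2, and the 0.14 was 0.03 without phenolphthalein replicate 1. With the normexp background correction they were 0.08 and 0.07. A_44_P448461 was not well above background on 1 array of each group, and A_64_P018751 on 1 vehicle array. The remaining probe, A_44_P934428, was well above background on 1 of the 3 phenolphthalein arrays and on 0 of the 3 vehicle arrays and was not tested. Its values were -5.61, -6.85 and -8.11 in phenolphthalein, against -8.17, -5.95 and -7.03 in vehicle. The Aqp4 probes therefore gave no common direction. A_44_P448461 is assigned to another RefSeq transcript of the gene than the other 5 probes.

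Avpr2 encodes the V2 receptor, through which vasopressin acts on principal cells. Its first probe, A_43_P11944, was at -0.08, -0.01 and 0.49 in phenolphthalein, against 0.30, 0.17 and 0.18 in vehicle. Its second, A_64_P031890, was at -0.15, -0.16 and 0.41 in phenolphthalein, against 0.28, 0.09 and 0.12 in vehicle. Phenolphthalein replicates 1 and 2 lay below all vehicle arrays and phenolphthalein replicate 3 above all of them, by both probes. The differences were -0.08 (SE 0.15, limma adjusted p = 0.896) and -0.13 (SE 0.16, limma adjusted p = 0.842), with 95% intervals of the ratio of 0.735 to 1.21 and 0.703 to 1.19. Centred on their means, the probes differed by no more than 0.07 on any array. Without phenolphthalein replicate 3 the differences were -0.26 and -0.32 (unadjusted p of 0.0208 and 0.0130), and without phenolphthalein replicate 1 the first was 0.02, so the value for Avpr2 turns on single arrays.

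Avpr1a encodes the V1a receptor, which acts through calcium in vascular smooth muscle and other cells. It was at -2.09, -2.22 and -2.03 in phenolphthalein, against -2.20, -1.78 and -1.55 in vehicle. Vehicle replicate 1 lay within the phenolphthalein values, and the other vehicle arrays lay above them. The means were -2.11 ± 0.10 in phenolphthalein and -1.84 ± 0.33 in vehicle (SD, n = 3 each), and the difference came to -0.27 (SE 0.17, limma adjusted p = 0.680). Without vehicle replicate 1 it was -0.45 (unadjusted p of 0.0113, limma adjusted p = 0.649), and without vehicle replicate 3 it was -0.13 (unadjusted p of 0.453). Markers of smooth muscle and mesangial cells, which carry this receptor, had a median difference of 0.07 over 7 genes, with 6 higher and 1 lower (0.03 to 0.16 when 1 array was left out).

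Aqp1, the constitutive water channel of the proximal tubule, thin descending limb, vasa recta and red cells, was at 6.83, 6.74 and 6.64 in phenolphthalein, against 6.89, 6.80 and 6.81 in vehicle. The groups overlapped through phenolphthalein replicate 1. The difference was small, at -0.09 (SE 0.06, limma adjusted p = 0.689), and the 95% interval of the ratio was 0.850 to 1.03. Without phenolphthalein replicate 1 it was -0.14, and without phenolphthalein replicate 3 it was -0.05 (unadjusted p of 0.0367 and 0.451). Beside it, proximal tubule markers had a median difference of -0.06 over 10 genes, erythroid markers -0.15 over 6 genes, all lower, and endothelial markers -0.06 over 8 genes. Of all 12269 genes by their brightest probe, 6827 were lower. The erythroid list holds several globin genes, and the 2 tested probes of Hba-a3 differed in sign. The erythroid median was -0.27 without vehicle replicate 1 and -0.05 without vehicle replicate 3. The endothelial median was -0.10 without phenolphthalein replicate 1, -0.02 without phenolphthalein replicate 2 and -0.01 without vehicle replicate 1. Fewer cells of a type and less RNA per cell cannot be told apart in such bulk samples, and the part of these cells in the value of Aqp1 was not tested.

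Aqp7, a channel for water and glycerol in the straight part of the proximal tubule and in adipocytes, was at 3.98, 3.79 and 3.82 in phenolphthalein, against 4.16, 3.95 and 3.94 in vehicle. Phenolphthalein replicate 1 lay above vehicle replicates 2 and 3, and the other phenolphthalein arrays lay below all vehicle arrays. The difference was -0.15 (SE 0.08, limma adjusted p = 0.647). Without phenolphthalein replicate 1 it was -0.21, and without vehicle replicate 1 it was -0.08 (unadjusted p of 0.0395 and 0.350). Markers of the straight segment had a median difference of 0.07 over 6 genes and were highest in phenolphthalein replicate 1, at 0.69 above their vehicle means. Without that array the median was -0.14. Adipocyte markers had a median difference of 0.07 over 5 genes, and -0.14 without the same array.

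Aqp11, an aquaporin of the endoplasmic reticulum whose loss in mice leads to cysts of the proximal tubule, was at 2.27, 1.24 and 1.18 in phenolphthalein, against 1.35, 1.32 and 1.94 in vehicle. One array of each group, phenolphthalein replicate 1 and vehicle replicate 3, stood above the rest, and the other 4 arrays lay between 1.18 and 1.35. The difference was 0.03 (SE 0.31, limma adjusted p = 0.984), and it was -0.32 without phenolphthalein replicate 1 and 0.23 without vehicle replicate 3. The 95% interval of the ratio, 0.612 to 1.70, covers changes of some size in both directions.

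Aqp6 encodes a channel of intracellular vesicles in acid-secreting intercalated cells. By probe A_44_P558451 it was at -2.69, -3.26 and -3.01 in phenolphthalein, against -2.94, -3.11 and -2.83 in vehicle. By probe A_64_P122362 it was at -3.16, -3.40 and -2.85 in phenolphthalein, against -2.84, -3.21 and -2.79 in vehicle. The groups overlapped by both probes, with differences of -0.03 (SE 0.17, limma adjusted p = 0.973) and -0.19 (SE 0.19, limma adjusted p = 0.792). The first of these changed sign without phenolphthalein replicate 2 (0.11) and without vehicle replicate 3 (0.04), and the second lay between -0.33 and -0.06 when 1 array was left out. Intercalated cell markers had a median difference of 0.05 over 11 genes, with 10 higher and 1 lower (5442 of all 12269 genes were higher). Single arrays moved it to both sides, to -0.07 without phenolphthalein replicate 3 and to 0.21 without phenolphthalein replicate 1.

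Aqp5, best known from salivary, lacrimal and airway glands, had the largest difference of the tested members and the widest spread. It was at -5.14, -3.0002 and -4.44 in phenolphthalein, against -3.98, -2.96 and -3.64 in vehicle, and every array was well above background. Replicate 2 was the highest array in both groups, and the groups overlapped through phenolphthalein replicate 2. The means were -4.19 ± 1.09 in phenolphthalein and -3.53 ± 0.52 in vehicle (SD, n = 3 each), and the difference came to -0.67 (SE 0.54, limma adjusted p = 0.748). The 95% interval of the ratio ran from 0.259 to 1.53. Without phenolphthalein replicate 2 the difference was -1.27 (unadjusted p of 0.0130, limma adjusted p = 0.419), and without phenolphthalein replicate 1 it was -0.20. With the normexp background correction it was -0.30.

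The markers of principal cells, where Aqp2, Aqp3, Aqp4 and Avpr2 are expressed, varied between arrays rather than between groups. Of 8 listed genes, 6 were tested, with 2 higher and 4 lower and a median difference of -0.06, which was 0.05 without phenolphthalein replicate 1 and -0.23 without phenolphthalein replicate 3. Relative to each gene's vehicle mean, the median of the list was -0.25, -0.28 and 0.47 in phenolphthalein replicates 1 to 3, against 0.10, -0.04 and 0.01 in vehicle. Phenolphthalein replicate 3 thus stood highest and the other phenolphthalein arrays lowest, as they did for Avpr2. The defining genes include Scnn1b and Scnn1g, subunits of the epithelial sodium channel, with differences of -0.15 and 0.13. Hsd11b2, the enzyme that shields the mineralocorticoid receptor from glucocorticoids, was at 4.99, 5.59 and 6.002 in phenolphthalein, against 5.61, 5.48 and 5.55 in vehicle, a difference of -0.02 (SE 0.23, limma adjusted p = 0.983).

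Because of this spread, the values of Aqp2, Aqp3 and Avpr2 were also taken relative to the mean of Scnn1b, Scnn1g and Hsd11b2 on the same array, a scale chosen after the values were seen. The mean of these 3 genes was 3.95 in phenolphthalein and 3.96 in vehicle. It was subtracted from every probe tested, so its spread between arrays entered every SE and adjusted p on this scale. These SE and adjusted p therefore do not describe single probes alone. On this scale Avpr2 (A_43_P11944) was at -3.75, -3.82 and -3.88 in phenolphthalein, against -3.80, -3.77 and -3.68 in vehicle. The range over the 6 arrays was narrow, and the SD was 0.07 in phenolphthalein, where it had been 0.31 on the scale of the 75th percentile. For Aqp3 the phenolphthalein SD was larger on the new scale, at 0.33 against 0.06. Aqp2 (A_64_P007189) was at 2.08, 2.34 and 2.02 in phenolphthalein, against 2.50, 2.49 and 3.15 in vehicle. The groups again did not overlap, and the difference was -0.56 (SE 0.25, limma adjusted p = 1.00). By A_42_P763077, Aqp2 was at -0.68, -0.80 and -1.02 in phenolphthalein, against -0.76, -0.43 and 0.10 in vehicle, with overlap and a difference of -0.47 (SE 0.27, limma adjusted p = 1.00). The vehicle SD of this probe was 0.43 here and 0.32 on the other scale. The Aqp2 difference was about as large on this scale as on the other, and it did not pass the test on either. That likeness is no second check of Aqp2. It had to arise, because the mean of the 3 genes was nearly level between the groups. Aqp3 differed by -0.16 (SE 0.26), with overlapping groups.

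**Figure D3:**
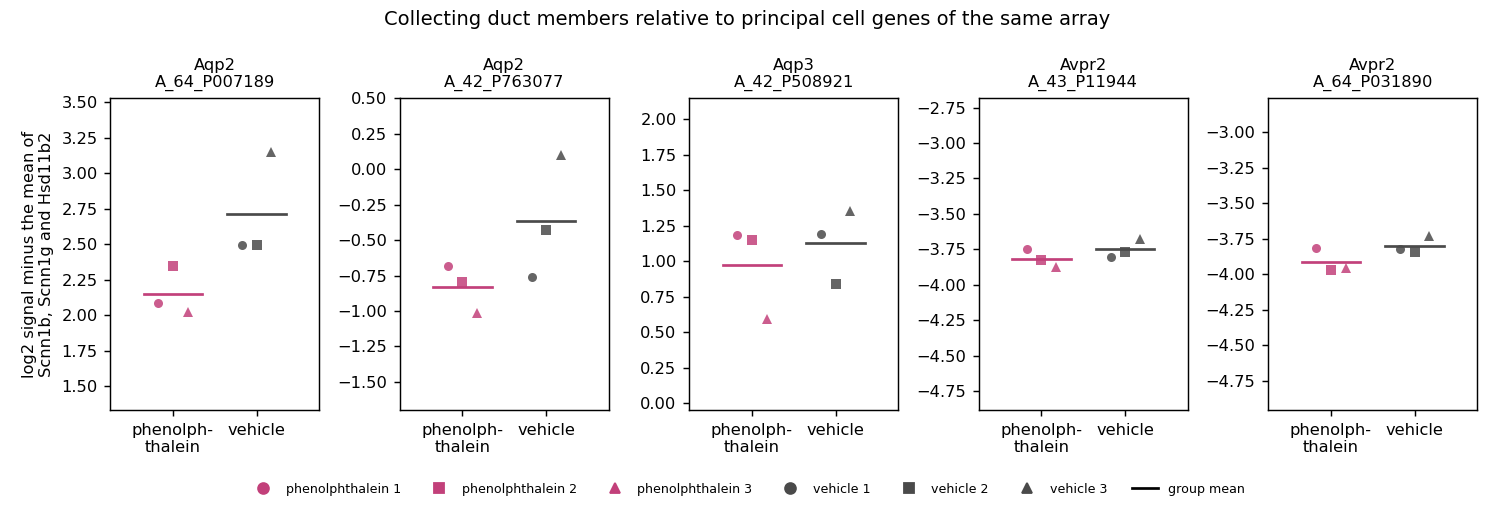
Log2 signal of the Aqp2, Aqp3 and Avpr2 probes minus the mean log2 signal of Scnn1b, Scnn1g and Hsd11b2 on the same array, in panels that each span the same height. Points are single arrays, bars are group means. The Avpr2 arrays lie close together, while Aqp2 by A_64_P007189 lies at 2.02 to 2.34 in phenolphthalein and at 2.49 to 3.15 in vehicle.

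The genes whose values over the 6 arrays lay nearest to those of Aqp2 (A_64_P007189) were Kcna7, Fam83d and Mip, among 12247 named genes outside the members, each by its brightest tested probe. Likeness was the mean absolute difference over the 6 arrays after each gene's own mean was subtracted, and it was 0.05 for Kcna7, 0.09 for Fam83d and 0.09 for Mip, where the median gene was at 0.31. Kcna7, a voltage-gated potassium channel, was at -5.02, -4.61 and -4.42 in phenolphthalein, against -4.08, -4.34 and -3.90 in vehicle. The signal of all 3 genes was low, with Fam83d at -4.91 to -3.98 and Mip at -4.21 to -3.03 over the arrays. They were picked for likeness to Aqp2, so their lower values with phenolphthalein are no separate result. The likeness is a description over 6 arrays of 2 groups. Of the other members, Avpr1a was nearest to Aqp2 at 0.23, followed by Aqp3 at 0.25 and Avpr2 at 0.25.

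The genes of the proteins that link the V2 receptor to AQP2 showed no call. Of 15 genes of vasopressin signalling, 8 had higher and 7 lower values, 0 passed the adjusted test, 0 had an unadjusted p under 0.05, and the median difference was 0.00479. Over all 12269 genes by their brightest probe, the median was -0.02, with 4.09% higher and 6.01% lower by the unadjusted p. Adcy6, the adenylyl cyclase that makes cyclic AMP in principal cells, was at 2.95 in phenolphthalein and 2.87 in vehicle. Prkaca, a catalytic subunit of protein kinase A, was at 4.45 in both groups. The 4 genes of this list with the smallest p were Akap7, an anchor of protein kinase A (difference of 0.23, SE 0.11), Arrb2, an arrestin that takes receptors off the membrane (-0.21, SE 0.10), Prkacb, another catalytic subunit (-0.25, SE 0.12), and the receptor kinase Grk4 (0.18, SE 0.09). The groups did not overlap for 2 of the 15 genes, against 15.6% of all probes. These were Akap7, higher, and the arrestin Arrb1, lower (-0.17, SE 0.09). The 2 tested probes of Arrb2 differed in sign, as did 1 of the 4 of Grk4. The adjusted p of the 4 genes with the smallest p lay between 0.597 and 0.624 (limma).

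Of 16 tested genes of AQP2 vesicle traffic, 8 had higher and 8 lower values, 0 had an unadjusted p under 0.05, and the median difference was 0.00503. The syntaxin Stx3 (difference of 0.17, SE 0.08), Sipa1l1, a regulator of Rap signalling that binds AQP2 (0.17, SE 0.11), the motor protein Myo5b (-0.12, SE 0.08) and the chaperone Hspa8 (-0.11, SE 0.09) had the smallest p. Of 13 tested transcription factors linked to Aqp2, 9 had higher and 4 lower values, with a median of 0.10 (-0.02 without phenolphthalein replicate 3). Gata2, which binds GATA sites, was at -2.38 ± 0.10 in phenolphthalein and -2.66 ± 0.10 in vehicle (SD, n = 3 each), the only one of the list with an unadjusted p under 0.05 (0.0340, limma adjusted p = 0.536). Nfat5, the tonicity-responsive factor, differed by 0.08 (SE 0.06), and its 4 tested probes split evenly in sign. Elf3 differed by 0.10 (SE 0.07) and the bile acid receptor Nr1h4 by 0.18 (SE 0.12).

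The mix of kidney segments in the samples was checked with marker lists, since the cortex borders on the medulla, where Aqp2 is abundant. Thin limb and inner medulla markers had a median difference of -0.02 over 6 genes, with 3 higher and 3 lower, and between -0.11 and 0.10 when 1 array was left out. Their medians by array, relative to the vehicle means, were 0.06, -0.07 and -0.10 in phenolphthalein, against 0.15, -0.18 and 0.04 in vehicle. Slc14a2, the vasopressin-responsive urea transporter of the inner medulla, was at -3.25 in phenolphthalein and -3.20 in vehicle. Cryab, with the highest signal of that list, was at 5.50, 4.40 and 4.25 in phenolphthalein, against 5.52, 4.54 and 4.08 in vehicle. Replicate 1 was its highest array in both groups, and its arrays spread more widely than the list medians. Thick ascending limb markers had a median difference of 0.07 over 6 genes, which was 0.11 without phenolphthalein replicate 2 and 0.03 without vehicle replicate 2. The marker values of the medulla overlapped between the groups, and their part in the Aqp2 values was not tested.

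**Figure D4:**
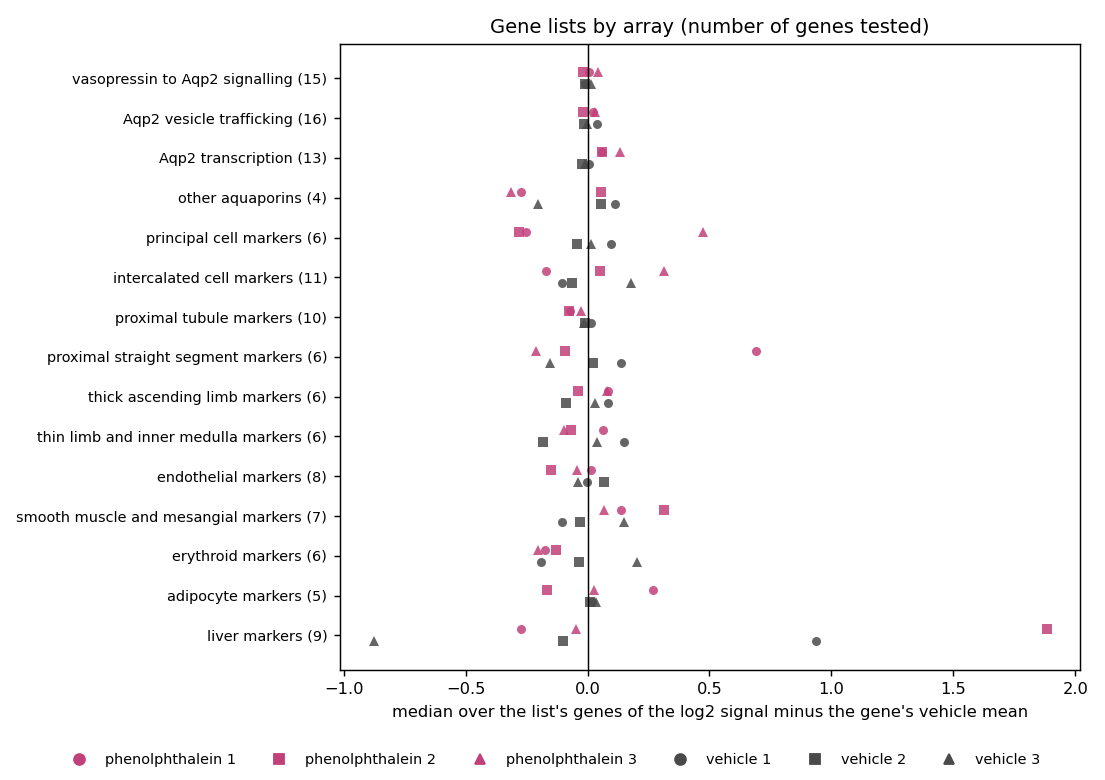
For each gene list, the median over its tested genes of the log2 signal minus the gene's vehicle mean, by array (pink, phenolphthalein; grey, vehicle; shapes give the replicate number). The principal cell markers of the phenolphthalein arrays lie at -0.25, -0.28 and 0.47, the vasopressin signalling genes lie near 0 on every array, and the liver markers spread from -0.88 to 1.88.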

How the data were processed

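Per the labels' protocols, total RNA of the renal cortex was labelled with Cy3 and hybridised to a rat array, 1 colour per array and 1 rat per array. Each deposited scanner file gives a processed intensity per spot, from which background had been taken off by version 10.7.1.1 of Agilent Feature Extraction, per the file headers (10.7 per the submitters' processing notes). The deposited value table holds a linear ratio. Every column equalled the intensity of 1 array over its 75th percentile, but of another replicate of the same group than its name gives, so only its group was used and replicate numbers here are those of the scanner files.

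Here, log2 processed intensity minus the array's 75th percentile over non-control probes was fitted with limma 3.58.1 in R 4.3.3 (lmFit, eBayes with intensity trend, two-sided). Between 2 and 14 outlier spots per array were set to missing, none of them on a member probe. The array design uses the rn4 build, so no coordinates of probes are given. Probes were named through RefSeq accessions without versions and the GRCr8 gene table, which named 27460 of 61657 probes. Promoter sequences were found for 9 of the 10 members. Lists were described by counts and medians over each gene's brightest tested probe. Over all 12269 such genes, 5442 were higher and 6827 lower, the background for the counts of every list. Named besides the members are, by rule, up to 4 genes per list with the smallest p and the 3 genes nearest to Aqp2. Adcy6, Prkaca, Arrb1, Scnn1g, Hsd11b2, Slc14a2 and Cryab were named outside that rule. The members and lists were chosen with earlier results of these data known. The fit was tested on simulated data. Only 6 arrays limit the precision.

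The planned normexp correction on the mean spot signal was replaced by one on the median signal, since the scanner files hold no mean spot signal. Other alternatives were quantile and median scaling, other filters, the slide or the replicate number as a block, no intensity trend, outlier spots kept, the value table, 1 probe per gene and leaving out each array.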

Additional observations from a re-analysis of the deposited data

How the results depend on the processing

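The count of member probes called was 0 higher and 0 lower under each of the 17 alternatives that refitted all probes. Over all probes 0 to 1 were called higher and 0 to 1 lower when 1 array was left out. The count of member probes lower at an unadjusted p under 0.05, which was 2, was 1 with a single probe per gene and 4 with the replicate number as a block, where Aqp7 and Aqp5 joined Aqp2. With that block the Aqp2 differences had to stay at -0.58 and -0.49, since each replicate number occurs once per group. Only their SE could change, to 0.11 and 0.07 (limma unadjusted p of 0.00382 and 0.000975, adjusted p of 0.448 and 0.397). The deviations of same-numbered animals correlated at -0.00852, -0.00914 and 0.0431, so no shared shift by number was seen over all probes. These correlations cannot decide whether the samples were paired. Leaving out 1 array gave 0 to 4 such member probes, and 1172 to 2064 probes higher and 1418 to 2116 lower over all, against 1701 and 2135. With slides taken as a random block, the Aqp2 differences were -0.59 and -0.49 (limma adjusted p of 0.693 and 0.710). This block cannot take a slide effect out of the differences, because no slide held both groups. Of 285 differences of member probes under alternatives, 278 kept direction and none gained a call. Many of these could not change direction, so the share is no measure of robustness. Other filters, the replicate block, no intensity trend, kept outlier spots and 1 probe per gene leave a member's difference as it is. The value table holds the same intensities. The 7 changes of sign all came from leaving out 1 array, and the cause was not tested. Without phenolphthalein replicate 1 they were Aqp11 (-0.32), Aqp4 by A_44_P561166 (-0.11) and Avpr2 by A_43_P11944 (0.0234). Without phenolphthalein replicate 2 and vehicle replicate 3 it was Aqp6 by A_44_P558451 (0.11 and 0.04). Without vehicle replicates 1 and 2 it was Aqp11 (-0.07 and -0.08). Their ranges were -0.32 to 0.23 for Aqp11, -0.11 to 0.21 for this Aqp4 probe, -0.17 to 0.11 for this Aqp6 probe and -0.26 to 0.0234 for this Avpr2 probe. List medians that moved by more than their spread between replicates were, with normexp, those of vasopressin signalling (0.0306), vesicle traffic (0.0335), transcription factors (0.0573) and proximal tubule markers (-0.0879), and, with quantile normalization, proximal tubule markers (-0.0243). Leaving out 1 array gave -0.0804 to -0.0374 for proximal tubule markers, -0.0196 to 0.113 for transcription factors and -0.14 to 0.12 for adipocyte markers. Another scaling moved the median of all probes by at most 0.0107. Signal over background limits the dim probes of Aqp4. The planned normexp correction on the mean spot signal was not run, and the one on the median signal and the scale of principal cell genes were chosen after seeing the data.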

Other observations

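The aquaporins outside the kidney's usual set gave no call. Mip, the aquaporin of the eye lens, was at -4.21, -3.56 and -3.60 in phenolphthalein, against -3.26, -3.57 and -3.03 in vehicle, a difference of -0.51 (SE 0.22, limma adjusted p = 0.586). It is also 1 of the 3 genes named above as nearest to Aqp2. Aqp8 differed by 0.11 (SE 0.29), Aqp9 by -0.10 (SE 0.35) and Aqp12a by -0.01 (SE 0.07), each with overlapping groups. Aqp9 is the glycerol channel of hepatocytes, and liver markers differed widely between arrays. Their medians relative to the vehicle means were -0.27, 1.88 and -0.05 in phenolphthalein, against 0.94, -0.10 and -0.88 in vehicle. Alb was highest in phenolphthalein replicate 2, at 3.16, and so was Aqp9, which was at -4.85, -3.67 and -4.58 in phenolphthalein, against -3.997, -4.08 and -4.73 in vehicle. Over the 9 liver markers, 8 had higher and 1 lower values with phenolphthalein, with 0 called. Their median difference was 0.51, and -0.18 without phenolphthalein replicate 2.

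Several arrays stood apart in single members in ways that differed from gene to gene. Phenolphthalein replicate 1 was the highest array of Aqp11 and of the first Aqp4 probe, and the lowest array of Aqp2 and Aqp5. The same array had the highest median of straight segment markers, at 0.69. It lay alone on its slide, so the animal and the slide cannot be told apart.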
